A study of Mus musculus with 5 samples.

Results

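The genes described here are 33 genes of glycolysis and of the response to low oxygen, named by symbol and found in each of the 5 single-cell libraries of this series among the 27726 genes that all 5 matrices share. They were chosen for what they encode, with earlier results of these data known. The list holds genes of glucose transporters, of each step of glycolysis, and of the enzymes and carriers that dispose of pyruvate and lactate. It also holds 9 genes of the hypoxia response. Aldoa is listed under 2 identifiers, and the values below are those of ENSMUSG00000030695, since the other had no count. The cells were sorted as group 2 innate lymphoid cells (ILC2s) by a gate of Lin-, CD45+, ST2+, CD127+ and Thy1.2+ from the lungs of wild-type C57BL/6 female mice aged 4 to 8 weeks, with the cells of 5 mice pooled in a library, and were counted with the 10x Chromium 3' v3.1 kit. The naive library came from mice with no tumour and no activation. The ta-non-activated libraries (ta, tumour-associated) held cells sequenced fresh from mice that carried TC1 tumour cells, placed under the skin of the flank, for 2 or 3 weeks. The ta-activated libraries held cells from mice of the same tumour weeks after 7 days of culture with IL-2, IL-33 and TSLP. The tumour was not in the lung, and culture, cytokines and time out of the body cannot be told apart, since no library was cultured without cytokines and no naive cells were cultured.

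Glycolysis breaks glucose down to pyruvate in the cytosol, and lactate dehydrogenase then turns pyruvate into lactate, which leaves the cell through monocarboxylate carriers. Hypoxia-inducible factor, of which Hif1a encodes the oxygen-regulated subunit, binds short DNA motifs and raises the transcription of most of these enzymes together with genes such as Vegfa, Bnip3 and Egln3. Lymphocytes that are activated or dividing are known for raising glycolysis as well, with oxygen present, while resting ILC2s in tissue are known to rely in large part on oxidative metabolism.

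Each library held 1838 to 6953 deposited barcodes. Of these, 1601 to 6389 had 200 or more genes and under 5% of counts from mitochondrial genes and were kept. Their summed UMIs (unique molecular identifiers, 1 per captured RNA molecule) ran from 9394957 in week 3 ta-non-activated to 61830293 in week 3 ta-activated, and the median per cell from 4396 to 16090.0. Levels are given as CPM, a gene's UMIs scaled to a library total of 1000000, which for 3' tags do not scale with transcript length, and "pairs" of values are week 2 followed by week 3. The identity of the cells was checked against 12 ILC2 markers and 7 T cell markers after each cell of 2000 UMIs or more had been thinned to that number. By that rule 88.6% of such cells in the naive library, 91.2% in week 2 ta-non-activated, and 92% and 96.7% in the ta-activated libraries were ILC2-gated (2 or more ILC2 markers, and more of them than of T cell markers). The week 3 ta-non-activated library stood apart: 520 of 1495 cells were ILC2-gated (34.8%, exact 95% interval 32.4 to 37.3, counting error only), and 883 had 2 or more T cell markers and more of them than of ILC2 markers, with Cd3d at 679 CPM against 1.78 to 44.8 in the other libraries. A member's level in the ILC2-gated cells of that library is given too where it differed from that of all its kept cells by more than 1.5 times, which was so for 19 of the 33 genes. The 7 T cell markers, all detected in each library, summed to 6141 CPM there and to 290.2 to 1186 elsewhere. The 9 other marker lists, for NK cells or ILC1s, type 17 cells, myeloid, mast, granulocytic, epithelial, endothelial, B and erythroid cells, summed to at most 289.7 CPM, that of epithelial markers in the naive library, and the 4 mast cell or basophil markers were all at 0 in week 2 ta-non-activated. Pairs of libraries shared 1 to 11 barcodes.

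The 33 genes together took up 2686 CPM in the naive library (95% Poisson interval 2668 to 2704, counting error only). They took up 8661 and 5139 CPM in fresh tumour-associated cells of weeks 2 and 3, and 13214 and 11387 after culture. The order was the same in ILC2-gated cells, at 2705 CPM in the naive library, 8707 and 4909 in ta-non-activated, and 13362 and 11356 in ta-activated. The group means were 6900.4 ± 2491 CPM (SD, n = 2) for ta-non-activated and 12301 ± 1291 (SD, n = 2) for ta-activated, so the cultured libraries did not overlap with the fresh ones but the fresh ones differed widely between the weeks. No test was made on the sum, and the naive group has 1 library. Against the single naive library the difference was largest among the lower enzymes of glycolysis. Their summed level was 740.4 CPM there against a mean of 6215 in culture, 8.39 times as high. The difference was smallest among the glucose transporters, at 64.0 and 74.7 CPM, 1.17 times as high. The ranking differed for culture over ta-non-activated, where the glucose transporters had the largest ratio of means, 3.06. The lower enzymes had 1.98 and the hypoxia response genes 1.16, the smallest. In ILC2-gated cells the glucose transporters had 2.92 and the lower enzymes 2.29. In week 3 of those cells the lower enzymes were ahead, at 3.90 against 3.37. Ratios to naive also went down with intron length, as set out below. A few genes carried most of the sum: Gapdh alone made 14.4% of it in the naive library and 22.4% and 23.1% in culture, and the leading 5 genes made 58.0% to 69.8% in the 5 libraries. Hilpda was the gene with the next largest share in the naive library (14.2%) and was not among the leading 5 in week 2 ta-non-activated or in culture.

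Cell by cell, the difference ran through most of the distribution. Among ILC2-gated cells the median number of UMIs from the 33 genes, per 10000 UMIs of a cell, was 25 in the naive library, 79.8 and 43.1 in ta-non-activated, and 107 and 96.5 in ta-activated. The cell at the 10th percentile of the cultured libraries, at 53.3 and 46.6, lay above the cell at the 90th percentile of the naive library, at 43.0. Within culture the spread between the 10th and the 90th percentile, 53.3 to 207 in week 2 and 46.6 to 177 in week 3, was wider than the 55.3 to 114 of week 2 ta-non-activated. Sums over fewer UMIs scatter more, and the median depth of these cells was 4633 UMIs in the naive library, 2998 in week 3 ta-non-activated and 12578 to 16475 in the other three.

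**Figure D1:**
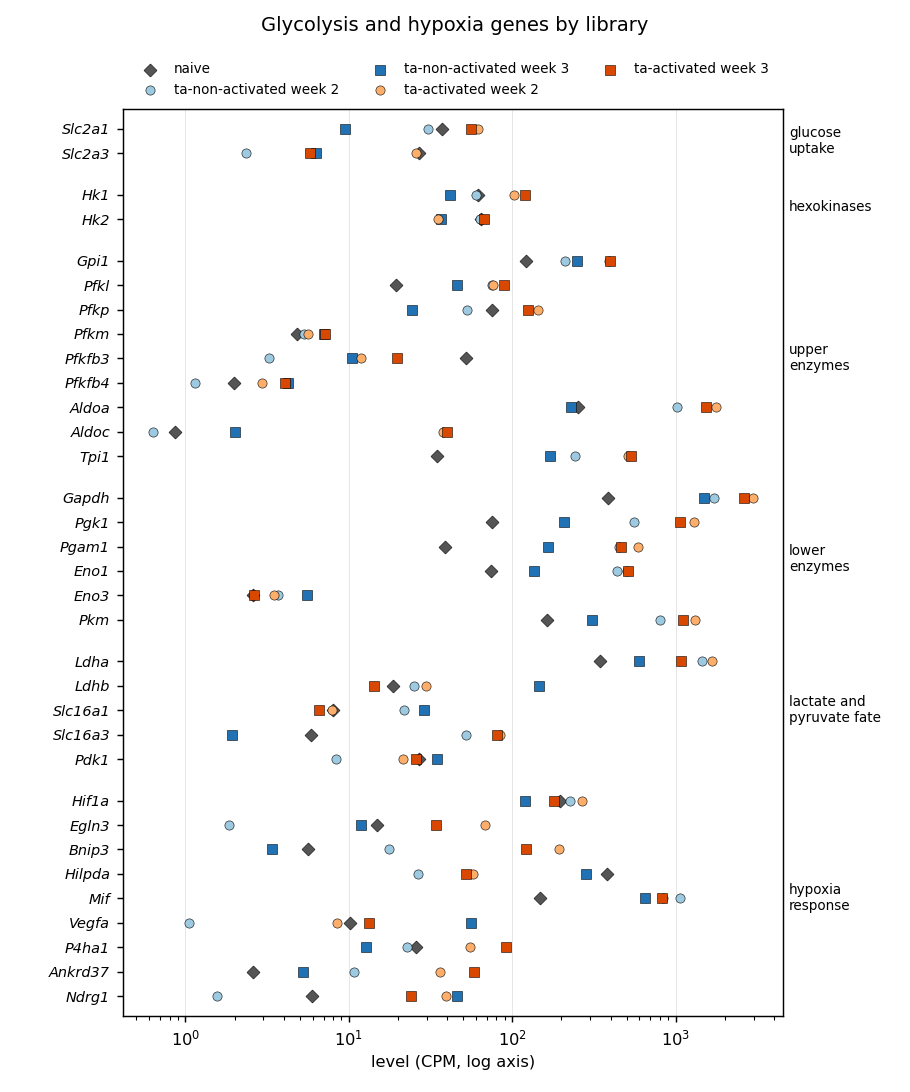
Level of each of the 33 genes (CPM, log axis) in the 5 libraries, ordered by role, with 1 point per library. The naive library (diamonds) lies lowest for Tpi1, Gapdh, Pgk1, Pgam1, Eno1, Pkm and Ldha, while Hilpda and Pfkfb3 have their highest point there.

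Both glucose transporters were lower in the fresh tumour-associated libraries than in the naive one. Slc2a1, which encodes the basal transporter GLUT1, was at 37.0 CPM in the naive library, 30.7 and 9.47 in ta-non-activated, and 62.0 and 55.9 in ta-activated. Slc2a3, the gene of the high-affinity transporter GLUT3, was at 27.0 CPM in the naive library, 2.35 and 6.28 in ta-non-activated, and 25.6 and 5.79 in ta-activated. The cultured libraries both lay above the fresh ones for Slc2a1 but not for Slc2a3, whose week 3 culture was no higher than its fresh counterpart. The hexokinases trap glucose in the cell as glucose 6-phosphate. Hk1 was at 61.7 CPM in the naive library, 60.1 and 41.4 in ta-non-activated, and 103 and 119.8 in ta-activated. Hk2, the inducible form, showed no such separation, at 64.5 CPM in the naive library, 63.4 and 36.8 in ta-non-activated, and 35.0 and 67.6 in ta-activated, with 63.7 in ILC2-gated cells of week 3 ta-non-activated.

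The upper enzymes, which carry glucose 6-phosphate to triose phosphate, were led by the aldolase gene Aldoa. It was at 253 CPM in the naive library, 1022 and 229 in ta-non-activated, and 1769.7 and 1541 in ta-activated, so that all kept cells of week 3 ta-non-activated lay beside the naive library. In ILC2-gated cells of week 3 ta-non-activated Aldoa was at 465 CPM, 0.84 above the gated naive cells on the log2 scale. Aldoc, a second aldolase gene, was low outside culture, with 28 UMIs in the naive library (0.864 CPM, 95% Poisson interval 0.574 to 1.25) and 0.632 and 2.02 CPM in ta-non-activated. In culture Aldoc stood at 37.5 and 40 CPM, from 2148 and 2473 UMIs. Tpi1, which interconverts the triose phosphates, was at 34.7 CPM in the naive library, 243 and 170.0 in ta-non-activated, and 509 and 531 in ta-activated. Gpi1, the isomerase that follows hexokinase, was at 122 CPM, then 211 and 248, then 391 and 395 in the same order of groups. Tpi1 was at 60.2 CPM and Aldoc had no UMI in ILC2-gated cells of week 3 ta-non-activated. These 4 genes were higher in both cultured libraries than in both fresh ones.

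Phosphofructokinase is the committed step of glycolysis. Its liver-type gene Pfkl was at 19.5 CPM in the naive library, 74.9 and 45.9 in ta-non-activated, and 75.8 and 89.3 in ta-activated, where week 2 culture hardly differed from week 2 fresh, and it was at 20.6 CPM in ILC2-gated cells of week 3 ta-non-activated. The platelet-type gene Pfkp was at 75.4 CPM in the naive library, 53.2 and 24.3 in ta-non-activated, and 144 and 125 in ta-activated. Pfkfb3 makes the allosteric activator of that enzyme and, like Pfkp, was lower in both fresh libraries than in the naive one. It was at 52.0 CPM in the naive library, 3.25 and 10.4 in ta-non-activated, and 11.8 and 19.7 in ta-activated. Pfkm, Pfkfb4 and the enolase gene Eno3 stayed under 20 CPM in each library, between 1.14 and 7.10. In ILC2-gated cells of week 3 ta-non-activated Pfkfb3 was at 5.90 CPM and Pfkfb4 at 2.36.

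Among the lower enzymes other than Eno3, the naive library was lowest and both cultured libraries were higher than both fresh ones. Eno3, low in each library, was lower in both cultured libraries than in both fresh ones. Gapdh was at 386 CPM in the naive library, 1714 and 1489.7 in ta-non-activated, and 2955 and 2627 in ta-activated. Pgk1, which makes the first ATP of the pathway, was at 75.0 CPM in the naive library, 556 and 206 in ta-non-activated, and 1291 and 1068 in ta-activated. Pgam1 was at 38.5 CPM in the naive library, 452 and 165 in ta-non-activated, and 591 and 465 in ta-activated. In these 3 genes the naive library was the lowest and week 3 ta-non-activated the next, and for Pgam1 the gap between week 2 fresh and week 3 culture was small. ILC2-gated cells of week 3 ta-non-activated held less of Gapdh and Pgam1, at 804 and 54.8 CPM. Eno1 was at 74.1 CPM in the naive library, 437 and 136 in ta-non-activated, and 502 and 511 in ta-activated. Pkm, the gene of pyruvate kinase, was at 164 CPM in the naive library, 802 and 306 in ta-non-activated, and 1314 and 1101 in ta-activated. Gapdh, Pgk1, Aldoa, Eno1 and Ldha have near-identical processed copies elsewhere in the mouse genome, so their levels depend on how reads that match several copies were treated. The only such copy of Eno1 counted under a name of its own, Eno1b, was at 0.106 to 4.32 CPM.

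The genes that decide what becomes of pyruvate differed among themselves. Ldha, whose product makes lactate, was at 343 CPM in the naive library, 1443 and 597 in ta-non-activated, and 1678 and 1082 in ta-activated, and the fresh and cultured libraries overlapped. Ldhb, whose product favours the reverse reaction, was at 18.6 CPM in the naive library, 25.1 and 146 in ta-non-activated, and 29.7 and 14.2 in ta-activated. In the week 3 fresh library the cells with T cell markers held 177 CPM and the ILC2-gated cells 34.8. The lactate exporter gene Slc16a3 (MCT4) was at 5.90 CPM in the naive library, 52.0 and 1.92 in ta-non-activated, and 84.3 and 80.8 in ta-activated, with 8.26 in ILC2-gated cells of week 3 ta-non-activated. Slc16a1 (MCT1), the other carrier gene, was at 7.99 CPM in the naive library, 21.9 and 28.8 in ta-non-activated, and 7.93 and 6.61 in ta-activated. It was thus lower in both cultured libraries than in both fresh ones, but only 2 UMIs of it came from ILC2-gated cells of week 3 ta-non-activated (1.18 CPM) against 257 from cells with T cell markers. Pdk1, a kinase that shuts off pyruvate dehydrogenase, overlapped between groups, at 26.8 CPM in the naive library, 8.34 and 34.4 in ta-non-activated, and 21.4 and 25.7 in ta-activated.

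Among the hypoxia response genes, Hif1a itself showed no order of the groups, at 195 CPM in the naive library, 225 and 120.3 in ta-non-activated, and 266 and 179 in ta-activated. A gene that overlaps it on the same strand, AC124712.1, had 59 UMIs against 41239 of Hif1a. Bnip3, a mitophagy receptor gene, was at 5.65 CPM in the naive library, 17.5 and 3.41 in ta-non-activated, and 193 and 121 in ta-activated. Egln3, the gene of a prolyl hydroxylase that marks HIF for decay, was at 14.8 CPM in the naive library, 1.84 and 11.8 in ta-non-activated, and 67.7 and 34.0 in ta-activated. For both genes the cultured libraries lay well above every other library. Bnip3 was at 6.49 CPM and Egln3 at 7.08 in ILC2-gated cells of week 3 ta-non-activated. P4ha1, which encodes a subunit of the collagen prolyl hydroxylase, was at 25.6 CPM in the naive library, 22.8 and 12.8 in ta-non-activated, and 55.0 and 91.2 in ta-activated. Ankrd37 was at 2.59 CPM in the naive library, 10.7 and 5.22 in ta-non-activated, and 36.2 and 58.6 in ta-activated. Mif, a cytokine gene that HIF can induce, was higher in all 4 tumour-associated libraries than in the naive one, and fresh and cultured overlapped, at 147 CPM in the naive library, 1067 and 651 in ta-non-activated, and 839 and 829 in ta-activated. In ILC2-gated cells of week 3 ta-non-activated Mif was at 229 CPM and Ankrd37 at 1.77, from 3 UMIs.

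Hilpda, Vegfa and Ndrg1 differed widely between the fresh libraries. Hilpda, whose product inhibits lipolysis on lipid droplets, was at 382 CPM in the naive library, 26.6 and 281 in ta-non-activated, and 57.7 and 52.3 in ta-activated. Vegfa, the angiogenic growth factor gene, was at 10.1 CPM in the naive library, 1.05 and 55.6 in ta-non-activated, and 8.42 and 13.3 in ta-activated. Ndrg1 was at 5.99 CPM in the naive library, 1.56 and 45.9 in ta-non-activated, and 39.4 and 24.1 in ta-activated. In each the week 3 fresh library was the higher of the fresh pair, unlike in Slc16a3, by 3.40, 5.72 and 4.87 on the log2 scale, while the cultured pair differed by 0.71 or less. In ILC2-gated cells the week 3 fresh library had 1128 CPM of Hilpda, 25.9 of Vegfa and 8.85 of Ndrg1, and the same differences were 5.38, 4.52 and 2.58.

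The comparison of ta-activated with ta-non-activated asks what a week of culture with alarmins does to these genes, and it rests on 2 libraries against 2, which within a group are of different tumour weeks. Both cultured libraries were higher than both fresh ones for 19 of the 33 genes, beside 32.3% of the 11023 genes at 1 CPM or more in 2 of the 4 libraries, and both were lower for 2, Eno3 and Slc16a1, beside 21.9% of genes. In ILC2-gated cells the count of higher members was 21, beside 33.2% of genes, with Pfkfb4 and Ndrg1 added. The only lower member there was Eno3, beside 13.1% of genes. The median log2 difference of the members was 0.89 within week 2 and 0.92 within week 3, beside medians of 0.08 and 0.01 over 7290 genes. Those genes had at least 20 CPM in a library and 4 or more UMIs in every library. The members were not held to the 20 CPM level. In ILC2-gated cells the medians of the members were 0.89 and 1.62, beside 0.08 and 0.26 over the genes that passed the same rule there.

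No single gene passed edgeR's quasi-likelihood test at an adjusted p of 0.05, neither a member nor any of the 12643 genes tested (0% called). An unadjusted p under 0.05 was seen for 2120 genes, 8 members among them. In counts simulated with the spread estimated for this comparison, edgeR recovered 0 of 66 genes changed by 3 on the log2 scale. Its 0 calls thus do not show that levels were equal. DESeq2 called 1033 of 12928 genes (7.99%) and 6 members, of which Aldoc, Egln3, Bnip3, P4ha1 and Ankrd37 were higher in culture and Slc16a1 lower. Aldoc had the largest fitted log2 fold change among the members, 4.90 ± 0.62 (SE; edgeR adjusted p = 0.243, DESeq2 adjusted p = 3.59e-11). Bnip3 followed with 3.71 ± 0.98 (edgeR adjusted p = 0.252, DESeq2 adjusted p = 0.00145), then Egln3 with 2.93 ± 0.94 (0.262 and 0.0196) and Ankrd37 with 2.40 ± 0.58 (0.247 and 0.00749). P4ha1 had 1.88 ± 0.53 (0.252 and 0.0335) and Slc16a1 -1.89 ± 0.34 (0.243 and 0.00203). The number of calls changed when a fresh library was left out. Such a fit takes its spread from the cultured pair alone, so its calls do not separate culture from the lone fresh library. In week 3 ta-non-activated 883 of 1495 cells had T cell markers. Cell type and culture thus cannot be told apart where that library stands alone. Without the week 2 ta-non-activated library edgeR called 16 members, beside 12.1% of genes, and without the week 3 one 4 members, Aldoc, Egln3, Vegfa and Ndrg1, beside 3.85% of genes. In ILC2-gated cells edgeR again called none, and there the fitted values were 5.94 ± 0.71 for Aldoc, 3.50 ± 0.68 for Bnip3 and 3.60 ± 0.84 for Egln3. They were 2.50 ± 0.81 for Ankrd37, 1.86 ± 0.56 for P4ha1 and -1.07 ± 1.05 for Slc16a1. All Aldoc UMIs on the fresh side of the gated value came from week 2 ta-non-activated, since week 3 had none in these cells.

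**Figure D2:**
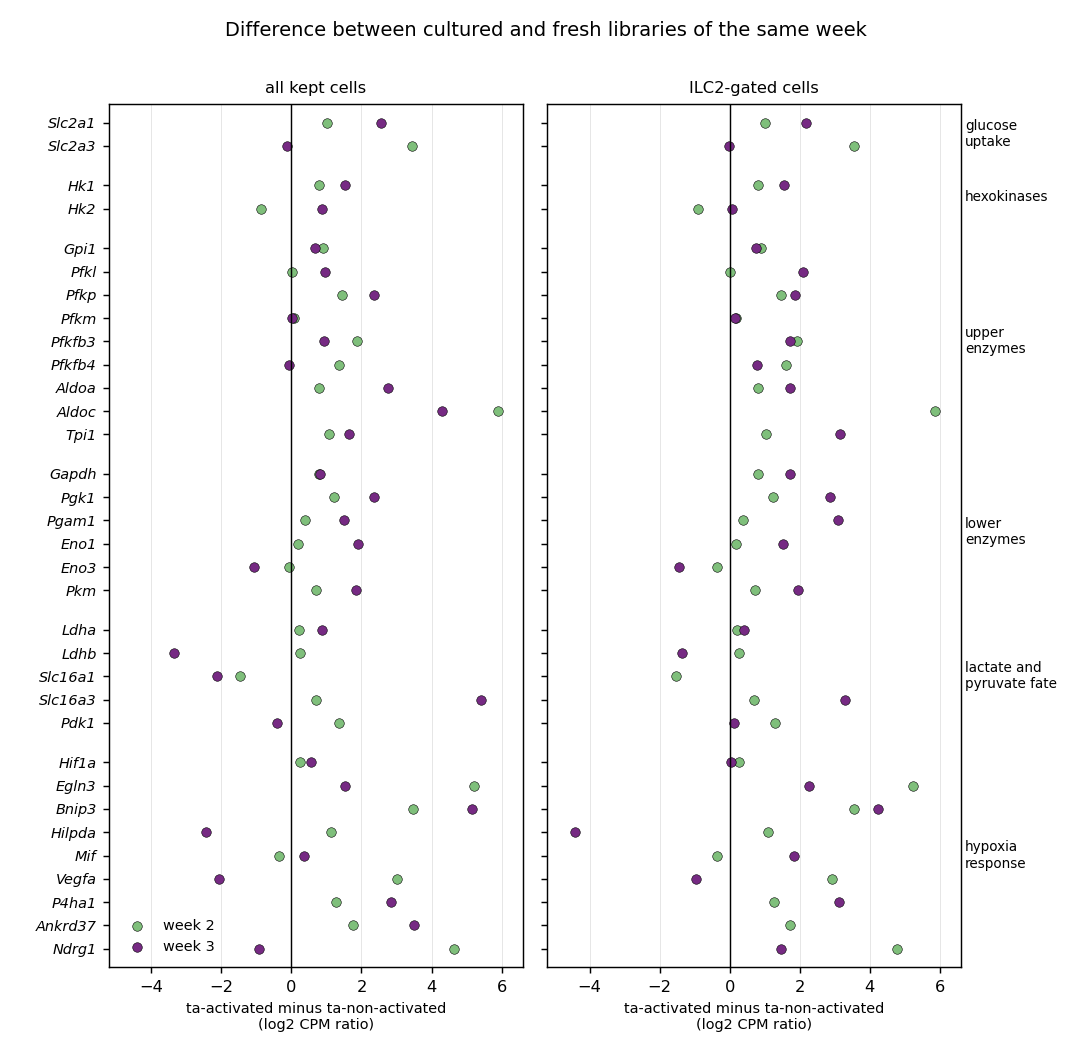
Log2 ratio of CPM, ta-activated over ta-non-activated, for each member within week 2 and within week 3, in all kept cells (left) and in ILC2-gated cells (right); members with fewer than 4 UMIs in a library are not drawn. On the left, Aldoc (5.89 and 4.31) and Bnip3 (3.47 and 5.15) lie far to the right in both weeks, and Hilpda, Vegfa and Ndrg1 change side between the weeks; on the right, Aldoc has no week 3 point.

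The 4 members with the largest fitted fold change in culture and Hilpda, which had its highest levels outside culture, are set out below by the 200 bases before their RefSeq start site (GRCm38.p6, first listed window of a gene), because the hypoxia-inducible factor motif lies near the starts of many of its targets. Capitals mark the core letters ACGTG or GCGTG on either strand, so that CACGT and CACGC are marked too and overlapping matches run together. The windows are chr11:78322873-78323072 (+ strand) for Aldoc, chr7:138909507-138909706 (- strand) for Bnip3, chr12:54203875-54204074 (- strand) for Egln3, chr8:45999851-46000050 (- strand) for Ankrd37 and chr6:29272288-29272487 (+ strand) for Hilpda.
Aldoc: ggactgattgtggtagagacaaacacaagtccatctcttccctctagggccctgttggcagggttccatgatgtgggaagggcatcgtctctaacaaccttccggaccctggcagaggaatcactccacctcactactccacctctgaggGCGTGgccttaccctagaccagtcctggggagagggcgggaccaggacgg
Bnip3: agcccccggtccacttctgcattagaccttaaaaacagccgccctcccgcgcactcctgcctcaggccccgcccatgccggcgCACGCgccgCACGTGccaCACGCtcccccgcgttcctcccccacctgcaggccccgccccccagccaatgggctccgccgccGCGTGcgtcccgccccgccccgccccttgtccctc
Egln3: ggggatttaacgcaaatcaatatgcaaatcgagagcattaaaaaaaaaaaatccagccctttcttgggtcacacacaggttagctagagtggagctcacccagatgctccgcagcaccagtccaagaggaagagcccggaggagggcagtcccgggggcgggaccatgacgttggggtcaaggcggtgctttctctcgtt
Ankrd37: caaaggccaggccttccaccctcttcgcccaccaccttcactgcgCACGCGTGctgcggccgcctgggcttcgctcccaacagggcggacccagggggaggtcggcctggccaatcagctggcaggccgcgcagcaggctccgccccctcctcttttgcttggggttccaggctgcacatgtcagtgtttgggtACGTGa
Hilpda: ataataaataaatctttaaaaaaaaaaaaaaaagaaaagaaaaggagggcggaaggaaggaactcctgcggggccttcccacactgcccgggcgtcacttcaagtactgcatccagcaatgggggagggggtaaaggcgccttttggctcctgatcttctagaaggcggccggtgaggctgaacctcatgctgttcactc
Bnip3 held 5 matches, Ankrd37 3 and Aldoc 1, and the letters were not in the windows of Egln3 and Hilpda. Of the 31 members with an entry, 21 held the motif in these 200 bases (67.7%), beside 34.1% of 27025 genes, and 13 held ACGTG (41.9%), beside 14.0%. The 27025 windows were not matched to the members in level or base content. The members were chosen in part as genes of the hypoxia response, so these shares say nothing of their regulation in these cells. A match is a run of letters and not a bound site, and no binding was measured here.

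The week 3 ta-non-activated library let the members be read in both of its cell classes side by side, without replicates. The summed level was similar, at 4909 CPM in the 520 ILC2-gated cells (95% Poisson interval 4804 to 5015) and 5224 in the 883 cells with T cell markers (5171 to 5277), but the genes behind it were not. Hilpda was at 1128 CPM in ILC2-gated cells (1078 to 1179) and 76.6 in cells with T cell markers (70.3 to 83.3), a log2 difference of 3.88. Aldoa was on that side too, at 465 against 159 CPM, as were Ldha at 816 against 545, Eno1 at 178 against 122 and Hif1a at 176 against 106. On the other side were Gapdh at 804 against 1676 CPM, Mif at 229 against 770.0, Tpi1 at 60.2 against 200.4, and Ndrg1 at 8.85 against 56.2. The high Vegfa of this library was also higher in cells with T cell markers, at 60.4 CPM against 25.9, and 25.9 was still above the 8.42 to 13.3 of culture and the 10.1 of the naive library. ILC2-gated cells here had a median of 2998 UMIs and those with T cell markers 6144.

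**Figure D3:**
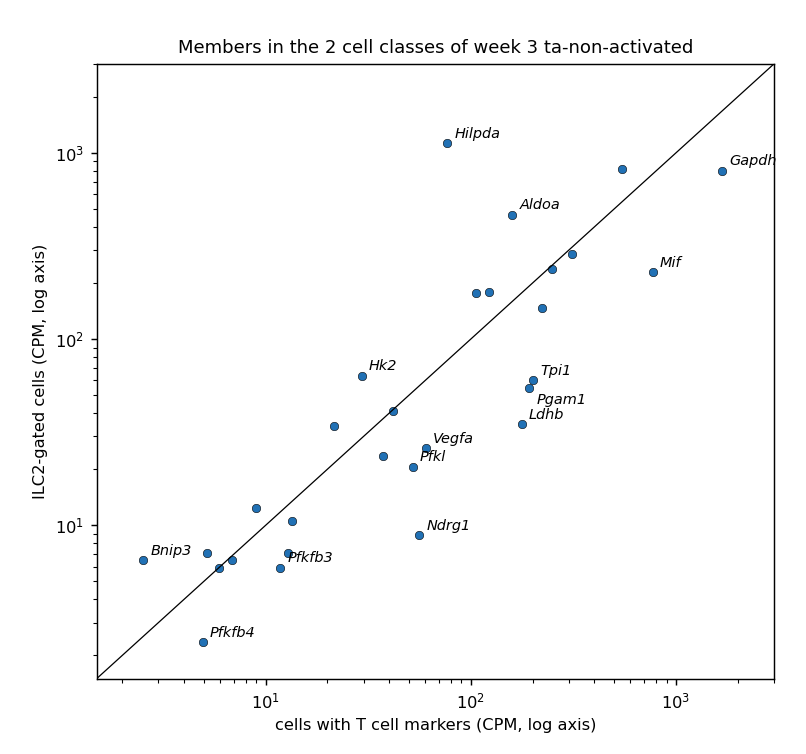
Level of each member (CPM, log axes) in ILC2-gated cells against cells with T cell markers of week 3 ta-non-activated, 1 point per gene with at least 4 UMIs in both; the line marks equal levels and genes that differ 2-fold or more are named. Hilpda and Aldoa lie above the line, and Ndrg1, Ldhb, Pgam1, Tpi1 and Mif below it.

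At 2000 UMIs per cell, Hilpda was detected in many fresh ILC2-gated cells of the naive and week 3 libraries and in few of week 2. Such a share is not the share of cells that express the gene. After thinning to 2000 UMIs per cell, 33.1% of naive ILC2-gated cells had a Hilpda UMI (exact 95% interval 31.9 to 34.4) and 45.6% of those of week 3 ta-non-activated (41.2 to 50). The share was 4.37% in week 2 ta-non-activated (3.43 to 5.47), and 8.78% and 8.08% in culture. Without thinning the shares were 47.9%, 50.6%, 35.3%, 34.7% and 32.4% in the same order. Cells with T cell markers had 13.2% in the naive library and 14.8% in week 3 ta-non-activated, below the ILC2-gated cells of the same libraries, where the median depth was 4751 and 6144 UMIs. Bnip3 gave the opposite picture, with 25.3% and 17.6% of cultured ILC2-gated cells after thinning against 1.07% in the naive library and 2.49% and 1.54% in ta-non-activated. Aldoc was seen in 6.82% and 7.16% of cultured cells, and in 0 of 520 ILC2-gated cells of week 3 ta-non-activated, which limits the share of those cells with an Aldoc UMI at that depth to 0.707% (exact 95%), and not the share that express it.

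Against the single naive library, ratios have no replicate check. In ta-activated, 18 and 19 members were at least 2-fold higher than naive in weeks 2 and 3, and 2 and 3 were at least 2-fold lower, beside 19.1% and 18.6% of the 7290 genes that were 2-fold higher and 27.2% and 24.3% that were 2-fold lower. In ta-non-activated the counts were 14 and 15 higher and 7 and 6 lower, beside 23.7% and 20.4% of genes higher and 33.7% and 29.0% lower. In ILC2-gated cells of week 3 ta-non-activated 6 of the 30 members with a value were 2-fold higher and 4 were 2-fold lower, beside 3.97% and 25.3% of 6971 genes. Among the members higher than naive in both fresh libraries were Pgam1, at 3.56 and 2.10 on the log2 scale, Pgk1 at 2.89 and 1.46, Mif at 2.86 and 2.14 and Tpi1 at 2.81 and 2.29. In week 3 Ldhb (2.97), Ndrg1 (2.94) and Vegfa (2.46) had higher ratios than these. Within ILC2-gated cells of week 3 the ratio was 0.57 for Pgam1, 0.95 for Pgk1, 0.65 for Mif, 0.79 for Tpi1, 0.90 for Ldhb, 0.72 for Ndrg1 and 1.41 for Vegfa. Slc16a3 reached 3.14 in week 2 but was -1.62 in week 3, where ILC2-gated cells had 0.55. Pfkfb3 was lower than naive in all 4 libraries, with ratios of -4.00 and -2.32 in ta-non-activated and -2.14 and -1.40 in ta-activated. Hilpda was lower too in all kept cells, at -3.84 and -0.44 in ta-non-activated and -2.73 and -2.87 in ta-activated, but within ILC2-gated cells of week 3 ta-non-activated it was 1.44 higher.

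The naive library differed from the other 4 along a property of genes that was not used to choose the members. Across 7289 genes, the log2 ratio to naive went down with the total length of a gene's introns, with a Spearman rho of -0.55 to -0.57 in the 4 libraries, all of which share the same naive library. The median ratio was 0.68 to 0.78 for the 20% of genes with the least intron (up to 4917 bases) and -1.61 to -2.20 for the 20% with the most (over 66841 bases). Its matrix was also made by a later release of Cell Ranger than the other 4. The members had a median of 16419 intron bases against 20379 for those genes, 8 of them lay among the lowest 20% and 2 among the highest 20%, which are Hk1 with 102522 bases and Pfkfb3 with 75084. Gapdh, Mif and Tpi1 have 620, 143 and 958 bases of intron, whereas Slc2a3 has 66587, Hk2 43461 and Pfkp 55609. Hilpda, with 1856, was lower than naive in all kept cells, while the 20% of genes it belongs to had a higher median. In week 2 ta-non-activated Pgam1 (4756 bases), Slc16a3 (7071) and Pgk1 (14356) were higher by more than the medians of the genes in their length class. In week 3 ta-non-activated Pgam1 (2.10) and Pgk1 (1.46) were above their class medians of 0.71 and 0.14. Slc16a3 (-1.62) was below its class median of 0.56. In ILC2-gated cells of week 3 ta-non-activated the ratios were 0.57 for Pgam1, 0.95 for Pgk1 and 0.55 for Slc16a3. The part of intron length and of the software release in the ratios to naive was not tested. The comparison of ta-activated with ta-non-activated does not use the naive library.

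**Figure D4:**
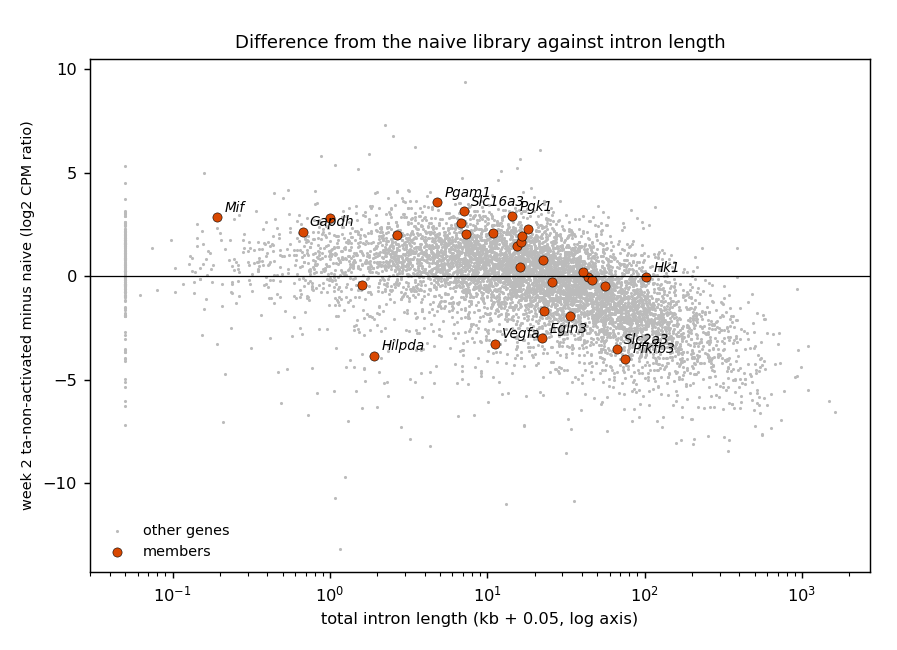
Log2 ratio of CPM, week 2 ta-non-activated over naive, against the total intron length of each gene (kb plus 0.05, log axis). The members are in orange over all other genes, in grey, with at least 20 CPM in a library and 4 or more UMIs in every library. Most genes with the longest introns lie below 0, and Hilpda, Vegfa and Egln3 lie low for their intron length.

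Cycling and non-cycling cells were compared within each library, to ask whether these transcripts take a larger share of the UMIs of dividing cells. A cell was called cycling with 2 or more of 12 cell cycle genes after thinning and non-cycling with 0, and the 12 genes were left out of the test. Cycling cells made up 0.667% of the naive library (41 cells), 6.80% and 11.8% of the ta-non-activated libraries, and 24.1% and 17.8% of the ta-activated libraries. In week 3 ta-non-activated 165 of the 177 cycling cells had T cell markers. Over all cells with 2000 UMIs or more, 312 cycling cells had exactly 2 of the genes, and 1414 cells with 1 gene were in neither class. Cycling cells were deeper than non-cycling ones in each library, with medians of 12518 against 4580.0 UMIs in the naive library and 24837 against 11289.5 in week 2 culture.

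The summed level of the members, a share of all UMIs of a class, was close to equal in both classes where it was high. Cycling cells had more UMIs each, so an equal share there is more member UMIs per cell. The share also differed with depth among ILC2-gated cells, compared above and below their median in UMIs. It was 14143 against 10509 CPM in week 2 and 11958 against 9697 in week 3 culture. In ta-non-activated it was 9020.0 against 7948 and 5305 against 4280.1, and in the naive library 2697 against 2721. The part of depth in the ratios of cycling to non-cycling cells was not tested. In culture, cycling cells held 13446 and 11602 CPM and non-cycling cells 13214 and 11291, ratios of 1.02 and 1.03, and in week 2 ta-non-activated 8911 and 8620.3, a ratio of 1.03. The ratio was 1.33 in the naive library and 1.53 in week 3 ta-non-activated, where ILC2-gated cells had 1.31 and 1.32, the last from 7 cycling cells. Among single genes, edgeR's test with library as a block called 4 of 33 members, 1 higher and 3 lower in cycling cells, beside 8.16% of 13132 genes called higher and 7.31% called lower. In ILC2-gated cells it called 5, beside 18.1% of genes, with Ankrd37 added on the lower side.

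Hilpda had the largest of these differences. Its level in cycling and non-cycling cells was 280.1 and 388 CPM in the naive library, 16.2 and 28.3 in week 2 and 52.7 and 385 in week 3 ta-non-activated, and 31.8 and 79.5 in week 2 and 31.9 and 61.7 in week 3 ta-activated. It was lower in cycling cells in 5 of 5 libraries, with a log2 fold change of -1.41 ± 0.28 (SE; edgeR adjusted p = 0.0115). In week 3 ta-non-activated the classes differ in T cell markers as well, and without that library the call remained. Among ILC2-gated cells those above the median in UMIs held more Hilpda than those below it in the naive library (428 against 389 CPM), week 2 ta-non-activated (27.9 against 25) and week 3 ta-non-activated (1327 against 811). In culture they held less, at 54.1 against 68.3 in week 2 and 46.9 against 69.7 in week 3, and the part of depth in the difference was not tested.

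Slc16a1, the carrier gene that was lower in culture over all kept cells, was higher in cycling cells in 5 of 5 libraries. Its log2 fold change was 1.05 ± 0.27 (SE; edgeR adjusted p = 0.0307). Its level was 13.4 against 7.99 CPM in the naive library, 28.3 against 20.9 and 57.9 against 13.0 in ta-non-activated, and 12.7 against 5.02 and 10.3 against 5.04 in ta-activated. In week 3 ta-non-activated 165 of the 177 cycling cells had T cell markers. Among ILC2-gated cells Slc16a1 was higher in cycling cells in 4 libraries. In week 3 ta-non-activated it was at 0 against 1.27 CPM, with 7 cycling ILC2-gated cells and 2 UMIs of Slc16a1 in all ILC2-gated cells. Those counts are too few to give a direction. The gated fold change of Slc16a1 was 0.75 ± 0.20 (edgeR adjusted p = 0.0207). ILC2-gated cells above the median in UMIs also held more of it than those below it in week 2 culture, at 8.83 against 4.06 CPM, and the part of depth in the difference was not tested. Slc2a1 was lower in cycling cells in 5 of 5 libraries, by 0.54 ± 0.15 on the log2 scale (edgeR adjusted p = 0.0461), with 52.7 against 70.3 and 49.2 against 58.5 CPM in culture. Pfkfb3 fell by 0.62 ± 0.17 on the log2 scale (edgeR adjusted p = 0.0436) and was lower in 4 of 5 libraries, week 2 ta-non-activated being the exception at 3.60 against 3.27 CPM. The calls of Slc2a1, Pfkfb3 and Slc16a1 were lost when either ta-activated library or the naive library was left out, or when cells were classed without thinning, while that of Hilpda held in each of these. The call of Slc2a1 was also lost without week 2 ta-non-activated, and with non-cycling called at 0 or 1 gene. Without the library block no member was called.

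The lower enzymes leaned the other way without passing the test. All 6 had positive fitted log2 fold changes in cycling cells, of which Pgam1 had 0.58 ± 0.30 (edgeR adjusted p = 0.211) and Gapdh 0.41 ± 0.20 (0.196). Eno1 was negative in ILC2-gated cells (-0.18) and without week 3 ta-non-activated (-0.05), and Pgk1 without the library block (-0.05). ILC2-gated cells above the median in UMIs held more of the lower enzymes than those below it in culture, at 7192 against 5083 and 6182 against 4579 CPM. They also did in ta-non-activated, at 4154 against 3564 and 1586 against 1304, but not in the naive library, at 719.7 against 759. The part of depth in the fitted values was not tested. Gapdh was at 942 against 377 CPM in cycling and non-cycling cells of the naive library and at 2279 against 1093 in week 3 ta-non-activated, but at 3096 against 2896 and 2812 against 2544 in culture. Members higher in cycling cells in 5 of 5 libraries were Tpi1, Gapdh, Pgam1, Slc16a1 and Mif, which is 5 of 33 beside 16.8% of all genes tested. Slc2a1, Aldoa and Hilpda were lower in 5 of 5, which is 3 of 33 beside 13.0% of genes. Of the 9 hypoxia response genes 8 had negative fitted values, beside 60.5% of all genes tested, with Ndrg1 at -0.71 ± 0.23 (edgeR adjusted p = 0.0669) and P4ha1 at -0.58 ± 0.19 (0.0701). Both of these were higher in cycling cells of the naive library, where their levels were 13.4 against 5.22 and 34.5 against 25.4 CPM, and both were called lower without the naive library and without a filter on low counts. Egln3, Bnip3 and Ankrd37 were positive when cells were classed without thinning, at 0.03, 0.16 and 0.25.

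**Figure D5:**
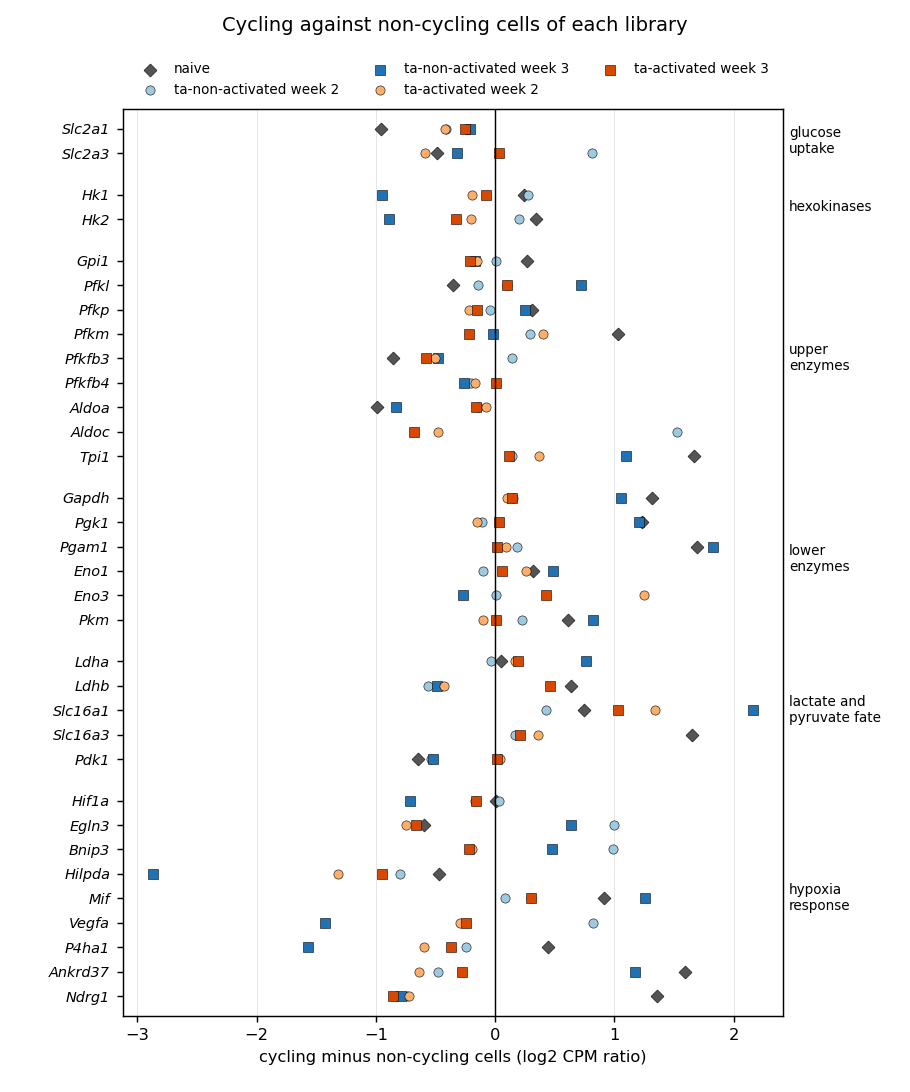
Log2 ratio of CPM, cycling over non-cycling cells, for each member in each of the 5 libraries; ratios with fewer than 4 UMIs in either class are not drawn. Hilpda and Slc2a1 lie left of 0 and Slc16a1, Gapdh and Tpi1 right of 0 in all 5 libraries, and for most lower enzymes the naive and week 3 ta-non-activated points lie farthest right.

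Neighbouring pathways were read as lists from the same fits. In ta-activated against ta-non-activated edgeR called none of the 19 other glycolysis genes tested, the 7 of the pentose phosphate pathway, the 10 of pyruvate oxidation, the 15 of the tricarboxylic acid cycle or the 28 other hypoxia genes. The median fitted log2 fold change was 0.68 for the members and 0.63 for the other hypoxia genes, of which 22 were positive, and -0.76 for the tricarboxylic acid cycle, of which 14 were negative, beside -0.02 over all genes. Of all 12643 genes tested, 6218 were positive and 6425 negative. Ero1l, an oxidase of the endoplasmic reticulum and the most abundant of the other hypoxia genes, was at 248 CPM in the naive library, 303 and 54.5 in ta-non-activated, and 1276 and 1139 in ta-activated (log2 fold change 2.56, edgeR adjusted p = 0.293). Mdh2, the malate dehydrogenase of the cycle, was at 128 CPM in the naive library, 389.9 and 284 in ta-non-activated, and 238 and 183 in ta-activated. In ILC2-gated cells of week 3 ta-non-activated Mdh2 was at 165 CPM, under both cultured libraries (238 and 182), and Ero1l at 174. The medians in ILC2-gated cells were 0.94 for the members, 0.62 for the other hypoxia genes and -0.75 for the cycle, beside -0.01 over all genes. DESeq2 called 4 of the other hypoxia genes, 3 of them higher, and 3 of the cycle, all lower. It called 7.99% of all 12928 genes it tested, 557 higher and 476 lower.

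Between cycling and non-cycling cells the same lists gave 6 calls of 28 for the other hypoxia genes, 5 lower and 1 higher, with a median log2 fold change of -0.38 beside -0.13 over all genes and -0.20 over the members. Of all 13132 genes tested, 8.16% were called higher and 7.31% lower. The 5 lower ones were Plin2 (-1.14 ± 0.17, edgeR adjusted p = 0.00219), Ero1l (-1.02 ± 0.20), P4ha2 (-1.01 ± 0.13), Bnip3l (-0.71 ± 0.13) and Arnt (-0.60 ± 0.17), and the higher one was the transferrin receptor gene Tfrc (0.82 ± 0.21). Plin2, which like Hilpda encodes a protein of lipid droplets, was at 118 against 237 CPM in week 2 and 77.0 against 106 in week 3 culture, and was lower in 5 of 5 libraries. Of the 15 genes of the tricarboxylic acid cycle 3 were called, all higher: Fh1 (0.84 ± 0.20), Idh3a (0.72 ± 0.16) and Idh2 (0.69 ± 0.19). Pdk3 was called higher among the 10 of pyruvate oxidation, and no gene of the pentose phosphate pathway or of other glycolysis genes was called. Apart from Ero1l, the genes of this paragraph were named after their calls were seen.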

How the data were processed

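The authors aligned reads to GRCm38 and counted UMIs per gene and barcode with Cell Ranger (3.0.2 per the labels; the header of the naive matrix names 6.0.0) and deposited filtered matrices of raw counts, which were used as they stand. Barcodes with 200 or more genes and under 5% mitochondrial counts were kept, and no doublet caller was run. Counts were summed per library, and the libraries, not cells, were the replicates. Groups came from the labels, and the 2 libraries of a group are of different tumour weeks, so week and replicate cannot be told apart and p-values measure only the spread between these libraries. edgeR 4.0.16 (R 4.3.3; TMM, filterByExpr, quasi-likelihood test, Benjamini-Hochberg over all genes) was the main test and DESeq2 1.42.0 an alternative. edgeR's test gives no SE, so each SE printed is the absolute log2 fold change divided by the square root of the F statistic. Replicated tests compared 2 with 2 libraries, or a cycling and a non-cycling sum from each of 5 libraries with library as a block. The classes used cells of 2000 UMIs or more thinned once to 2000. Log2 ratios to naive have no test. Intervals (exact Poisson or Clopper-Pearson, 95%) cover counting error only. Members are named by role, with the value in each library for the 30 at 20 CPM or more in a library. The members and lists were chosen with earlier results of these data known. Intron lengths are gene span less exons in GENCODE M21, and promoter windows are from RefSeq (GRCm38.p6). The tests were first tested on simulated data. With the spread estimated from these libraries, edgeR recovered 0 of 68 genes changed by 1 on the log2 scale in ta-activated against ta-non-activated. It recovered 0 of 66 changed by 2 and 0 of 66 changed by 3. For cycling against non-cycling it recovered 47 of 68, 65 of 66 and 66 of 66. With a lower spread set instead (dispersion 0.02), the first comparison gave 54 of 68, 66 of 66 and 66 of 66. Alternatives were DESeq2, no filter, other barcode and cell rules, a block for the week, and leaving out each library.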

Additional observations from a re-analysis of the deposited data

Results flagged for a closer look

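In 9 of the 33 members the log2 difference of ta-activated minus ta-non-activated had one sign in week 2 and the other in week 3. The difference between the weeks was not tested, since each week has 1 library of each kind, and in 4 of these genes at least 1 of the differences was under 0.4 in size. The differences in weeks 2 and 3 were 3.45 and -0.12 for Slc2a3, -0.86 and 0.88 for Hk2, and 1.37 and -0.06 for Pfkfb4. They were 0.25 and -3.36 for Ldhb, 1.36 and -0.42 for Pdk1, and 1.12 and -2.43 for Hilpda. They were -0.35 and 0.35 for Mif, 3.0 and -2.06 for Vegfa, and 4.65 and -0.93 for Ndrg1. In ILC2-gated cells the week 3 value of Ndrg1 was 1.46, of Pfkfb4 0.79 and of Pdk1 0.11. These thus had one sign in both weeks, but their week 3 fresh levels rest on 15, 4 and 40 UMIs. The signs stayed opposite for Hilpda (1.08 and -4.41), Vegfa (2.93 and -0.95) and Mif (-0.35 and 1.84). They did so too for Slc2a3 (3.55 and -0.01), Hk2 (-0.90 and 0.07) and Ldhb (0.27 and -1.36). In these cells the week 3 ta-non-activated values rest on 520 cells. Its cells with T cell markers made up 59.1% of cells with 2000 UMIs or more, and their part in the differences over all kept cells was not tested.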

How the results depend on the processing

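Beside its 0 calls with edgeR, ta-activated against ta-non-activated gave 1033 genes and 6 members with DESeq2, and 0 of both without a filter, with all 5 libraries in 1 fit, with all deposited barcodes, at a mitochondrial limit of 10%, or in ILC2-gated cells. Leaving out 1 library gave 0 to 1646 genes and 0 to 16 members, with the most without week 2 ta-non-activated (1646) and 513 without week 3, where the lone fresh library is taken to vary like the cultured pair. With the week as a replicate block 0 genes and 0 members were called. The week numbers mark a shared tumour week, and libraries of the same week were not taken as pairs in the main fit. Their deviations from the group means correlated at -0.06 over all kept cells. Of the week 3 ta-non-activated cells with 2000 UMIs or more, 59.1% had T cell markers. That correlation thus cannot decide whether the weeks had a shared effect. An alternative chosen after seeing the data, ILC2-gated cells with the week as a block, called 99 genes and 2 members, Aldoc and Bnip3. For cycling against non-cycling, calls went from 2032 genes to 1169 without thinning and 241 without the library block, and from 4 members to 7 without a filter, 1 without thinning and 0 without the block. Leaving out 1 library gave 800 to 2113 genes and 1 to 4 members, and the lowest counts came without a ta-activated library (800 for week 2, 901 for week 3). The other alternatives stayed within 1.5 times these counts.

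The sign of some members changed, those of Vegfa (-1.35) and Hilpda (-1.47) among them. In ta-activated against ta-non-activated, Pfkm became 0.02 without a filter, with all barcodes and at the 10% limit, and 0.04 with all 5 libraries. Hif1a became -0.02 and Mif 0.13 in ILC2-gated cells, and -0.05 and 0.54 there with the replicate block, where Vegfa was 0.78, and 0.31 with the block in all cells. Between cycling and non-cycling cells, Slc2a3 became 0.08, Pfkfb4 0.08, Aldoc 0.14, Egln3 0.03, Bnip3 0.16 and Ankrd37 0.25 without thinning. Pfkl became -0.04 without a filter and -0.16 in ILC2-gated cells, where Eno1 was -0.18 and Ldha -0.13. Pfkfb4 became 0.03 and Pgk1 -0.05 without the library block, and Bnip3 0.04 with cycling called at 3 genes and 0.01 with non-cycling at 0 or 1. The ratio to naive of the ta-non-activated mean became 0.48 for Hilpda and -0.05 for Ndrg1 in ILC2-gated cells. Leaving out 1 library turned the sign of 17 fitted values of the first comparison and 9 of the other. In the first the values then ran from -0.62 to 0.53 for Hk2, -0.11 to 0.91 for Pfkl, -0.18 to 0.14 for Pfkm, -0.21 to 1.37 for Pfkfb4, -0.02 to 1.75 for Pgam1, -0.03 to 1.96 for Eno1 and -0.30 to 1.28 for Ldha. They ran from -0.48 to 1.25 for Pdk1, -0.26 to 0.96 for Hif1a, -2.29 to 0.80 for Hilpda, -0.60 to 0.43 for Mif, -2.29 to 3.11 for Vegfa and -0.46 to 4.10 for Ndrg1. In the other they ran from -0.15 to 0.11 for Pfkl, -0.02 to 0.26 for Pfkm, -0.05 to 0.16 for Eno1, -0.08 to 0.17 for Ldha, -0.07 to 0.21 for Slc16a3, -0.30 to 0.12 for Bnip3 and -0.50 to 0.03 for Ankrd37. Ratios to naive of the ta-non-activated mean ran from -0.14 to 2.01 for Aldoa, -1.62 to 3.14 for Slc16a3, -3.26 to 2.46 for Vegfa and -1.94 to 2.94 for Ndrg1.

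The summed level in the naive library was 2427 CPM with TMM library sizes, 2659 with all barcodes, 2664 at the 10% limit, 2705 in ILC2-gated cells and 2300.2 without Gapdh. Without Gapdh the cultured libraries had 10259 and 8760.5 CPM. The order of the 5 libraries was the same in each of these 5 alternatives. Members 2-fold or more lower than naive in ta-non-activated numbered 6 and 7 without either library, against 4 in the mean. The cause of these changes was not tested. The test of culture is limited by 2 libraries a group that differ widely when fresh, and levels under 10 CPM in week 3 ta-non-activated rest on under 100 UMIs.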
